A study of Mus musculus with 2 samples.

Results

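The cells described here were CD8 T cells with transcripts of both Pdcd1, which encodes the inhibitory receptor PD-1, and Havcr2, which encodes the inhibitory receptor TIM-3. They were selected on raw counts of unique molecular identifiers (UMIs, each standing for 1 captured transcript): at least 2 UMIs of Cd8a and Cd8b1 together, at least 1 of the CD3 genes, at least 1 of Pdcd1, at least 1 of Havcr2, none of Foxp3, at most 1 of the cycling genes Mki67 and Top2a, and at most 2 of the macrophage genes C1qa, C1qb and C1qc. Barcodes needed at least 500 UMIs and 250 genes, with at most 10% of UMIs from mitochondrial genes. The rule found 161 cells among 23456 barcodes, 65 from DMSO and 96 from STK. These same counts chose the cells, so the levels of Cd8a, Cd8b1, Pdcd1, Havcr2, Foxp3, Mki67 and Top2a in them are descriptions of the choice.

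Both libraries were made from hepatocellular carcinomas of mice of the MYC-ON genotype, dissected after gavage with DMSO, the solvent, or with STK, an agent that the labels do not describe further. Live CD45-positive cells were sorted, so that tumour cells and stroma were left out by design, and 5′ single-cell libraries were prepared under 1 shared batch label. The title of the series names the cholesterol-esterifying enzyme SOAT1 as inhibited, and the hydroxycholesterol receptor GPR132. How the MYC transgene is driven, how many animals were pooled, and their sex and age are not given in the labels. Each group is 1 library, so no difference between DMSO and STK below has a replicate check, and every interval covers counting error only.

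T cells that meet their antigen for a long time, as in a tumour, enter a state called exhaustion. They keep several inhibitory receptors on the surface, depend on the transcription factor TOX, and make less cytokine. A precursor form keeps the transcription factor TCF-1, encoded by Tcf7, while the terminal form loses it and gains TIM-3.

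The measured genes fitted the label of exhausted CD8 T cells. Lag3, an inhibitory receptor gene that the selection did not use, stood at 273 CPM (counts per 1000000 UMIs of the gate; 95% Poisson interval 210 to 349) in the DMSO cells and 240 (189 to 300) in the STK cells. Tox stood at 281 CPM (218 to 358) and 258 CPM (206 to 320). When each cell was thinned to 1000 UMIs, Lag3 was detected in 21.5% and 16.8% of the selected cells and Tox in 21.5% and 20.0%. Unthinned, the shares were 58.5% and 49.0% for Lag3 and 63.1% and 56.2% for Tox. In B cells of the same libraries, which should lack both and had medians of 1980 and 2166 UMIs against 4289 and 4001.5 in the selected cells, the thinned shares were 0 of 139 cells (up to 2.62% by the upper binomial bound) and 0.613% for each gene. Of the rule's own genes, Cd8a stood at 1164 and 1090, Cd8b1 at 1335 and 1336, Pdcd1 at 1011 and 1149 and Havcr2 at 392 and 399 CPM, DMSO first. Havcr2 lies at chr11:46454935-46481255 on the plus strand and Pdcd1 at chr1:94038305-94052553 on the minus strand of GRCm38.

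Detection of Havcr2 was close to its lower limit in most of the 161 cells, mixed ones kept. In the DMSO library 44 cells had 1 Havcr2 UMI, 9 had 2 and 12 had 3 or more, and in the STK library 65, 20 and 11. Just outside the limit lay 174 DMSO and 478 STK cells with Pdcd1 and no Havcr2 UMI. Lag3 was at 101 and 96.6 CPM in those outside cells and at 222 and 193 in the cells with 1 Havcr2 UMI. Tcf7 was at 128 and 93.0 outside and at 25.8 and 24.9 with 1 Havcr2 UMI. Tox lay closer, at 200 and 138 outside and at 211 and 193 with 1 Havcr2 UMI. Cells with Havcr2 and no Pdcd1 numbered 37 and 29. On the cycling limit, 16 and 29 selected cells had 1 UMI of Mki67 or Top2a, and 11 and 8 cells lay just outside with 2.

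Some selected barcodes held RNA of other cell types. In 11 of the 65 DMSO cells (16.9%, exact binomial interval 8.76 to 28.3) and 15 of the 96 STK cells (15.6%, 9.02 to 24.5), the summed markers of macrophages, B cells, neutrophils and dendritic cells reached at least 20 UMIs. Among other CD8 T cells of the libraries the shares were 7.44% and 9.87%. These mixed cells were deep, with medians of 7157 and 9353 UMIs against 3843.5 and 3733 in the rest, and a doublet caller marked 10 and 9 of them but 0 and 1 of the rest. In the mixed cells the dendritic cell list summed to 15315 and 28398 CPM and the macrophage list to 10889 and 6820. Without them the same sums were 235 and 162, and 384 and 405, with Adgre1, Spi1 and Fcgr1 at 0 in both libraries. Unless stated, all levels and folds below come from the 54 DMSO and 81 STK cells that are not mixed, holding 234493 and 321103 UMIs. So do those above in CPM for the selected cells as a whole, and the comparison gates were treated likewise. Shares of cells use all selected cells unless stated.

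The whole libraries held 11152 and 10846 barcodes after the quality limits, with medians of 4471.5 and 4930.5 UMIs. They differed in sex: 1025 DMSO barcodes had Xist without Y-linked transcripts and 4439 the reverse, against 4613 and 1621 in STK. Among the selected cells 1 was of female type and 33 of male type in DMSO, and 33 and 12 in STK. Sex and treatment cannot be told apart here beyond the male-type values given. There were 203 barcodes shared by both libraries, and 2 DMSO cells and no STK cell of the selection carried one. Reads of the variable receptor segments were sparser in STK, where the selected cells, mixed ones kept, had 1732 CPM of beta-chain segments against 4852 in DMSO, and the same held in naive-like cells with 1227 against 3321. Its part in the receptor results was not tested.

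Havcr2+ Pdcd1+ cells made up a like share of CD8 T cells in both libraries when all receptor pairs were counted. They were 65 of 993 CD8 T cells in DMSO (6.55%, 5.09 to 8.27) and 96 of 1413 in STK (6.79%, 5.54 to 8.23), a ratio of 1.04 with an interval of 0.750 to 1.44. A difference of this size was not detectable with these cell numbers. Without the cells of the 2 most frequent receptor segment pairs of each library, which are described further on, the ratio was 1.54 (1.03 to 2.35). These pairs were chosen for being frequent among the selected cells, so leaving them out lowered the share by construction. It took out 18 and 11 selected cells in DMSO and 7 and 7 in STK. A pair was read in 63 of 65 DMSO and 78 of 96 STK cells. The ratio of 1.54 is thus not a like comparison and does not show an excess in STK. With every cell thinned to 2000 UMIs before selection, the shares were 35 of 807 (4.34%) and 42 of 1136 (3.70%). Among male-type cells alone they were 33 of 405 (8.15%) and 12 of 260 (4.62%), a ratio of 0.566 (0.266 to 1.13). The female-type DMSO cells were too few to compare, with 1 selected of 78 against 33 of 511 in STK.

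The surrounding Pdcd1-positive pool differed more. Pdcd1-positive cells without a Havcr2 UMI were 17.5% of CD8 T cells in DMSO and 33.8% in STK, 1.93 times as large a share (1.62 to 2.31). Within all Pdcd1-positive CD8 T cells, the Havcr2-positive share was thus 27.2% (21.7 to 33.3) in DMSO and 16.7% (13.8 to 20.0) in STK. CD8 T cells as a whole were 8.90% and 13.0% of barcodes, and the Havcr2+ Pdcd1+ cells 0.583% and 0.885%. Cycling cells among Havcr2+ Pdcd1+ CD8 T cells, which the selection set aside, were 62 of 127 (48.8%) and 71 of 167 (42.5%), and their intervals overlapped. These cells were deeper, with medians of 11291 and 13137 UMIs, and on counts thinned to 2000 UMIs they were 9 of 44 (20.5%, 9.80 to 35.3) and 5 of 47 (10.6%, 3.55 to 23.1).

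**Figure D1:**
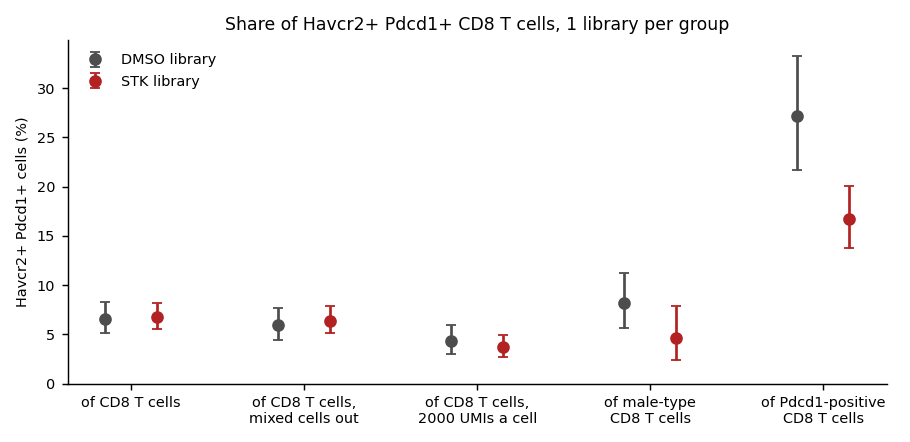
Points give the Havcr2+ Pdcd1+ share (percent) of the named denominator in each library, and bars the exact 95% binomial interval. The libraries lie close for all CD8 T cells (6.55% and 6.79%) and apart for Pdcd1-positive cells (27.2% and 16.7%).

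The identity of these cells was set against Gzmk-positive Havcr2-negative CD8 T cells (324 DMSO and 586 STK cells), the effector-memory-like neighbours, and against naive-like CD8 T cells (376 and 434 cells) with transcripts of naive T cell genes, among them Ccr7 and Lef1, and none of Pdcd1, Gzmk or Havcr2, so that these genes define those gates. A gene was called where its level differed at least 1.5-fold in the same direction in both libraries, with 50 CPM and 30 UMIs in the higher gate. Against the Gzmk-positive cells 39 of 1716 genes (2.27%) were higher in the Havcr2+ Pdcd1+ cells and 66 (3.85%) were lower. With mixed cells kept, the counts were 79 of 2156 (3.66%) and 56 (2.60%), and genes of antigen-presenting cells such as Cd74, H2-Ab1 and Lst1 then entered the 12 highest. Against naive-like cells 306 of 1520 genes (20.1%) were higher and 142 (9.34%) lower, and with mixed cells kept 347 of 1955 (17.7%) and 121 (6.19%). The split depended on the scaling, since levels relative to UMIs other than ribosomal, mitochondrial and receptor genes gave 163 higher and 343 lower with mixed cells kept. Without the 2 most frequent receptor pairs of each library and without mixed cells, 151 were higher and 130 lower. Gene lists were read with a lower minimum of 30 UMIs over both gates. By that rule 167 of 4845 genes (3.45%) were higher than in Gzmk-positive cells and 146 (3.01%) lower.

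Inhibitory receptors beyond the selecting pair were higher in the Havcr2+ Pdcd1+ cells. Of 10 listed receptors with enough UMIs, 5 were higher than in Gzmk-positive cells and none lower, with a median log2 ratio of 0.77 in DMSO and 0.62 in STK against 0.03 and 0.05 over all genes read. Lag3 was 4.44 times (3.08 to 6.39) the level of the Gzmk-positive cells in DMSO and 3.52 times (2.61 to 4.71) in STK. It stood at 61.5 and 68.2 CPM in the Gzmk-positive cells and at 2.43 and 1.64 in naive-like cells. Tigit, whose product competes with a costimulator for the same ligands, stood at 716 and 763 against 319 and 485. Ctla4, whose product competes with CD28, stood at 618 and 545 against 265 and 317. Entpd1, encoding the ectoenzyme CD39, stood at 149 and 162 against 69.3 and 67.1. Lilrb4a, an inhibitory receptor of the immunoglobulin family, stood at 328 and 249 against 132 and 151. In both libraries each of these 5 ranked in the order Havcr2+ Pdcd1+, Gzmk-positive, naive-like.

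Several of these receptors were found in the same cell. Counting 15 receptors other than Pdcd1 and Havcr2 in cells thinned to 1000 UMIs, the Havcr2+ Pdcd1+ cells had a mean of 2.0 ± 1.15 (SD over 65 cells) in DMSO and 2.19 ± 1.44 (95 cells) in STK. Pdcd1-positive Havcr2-negative cells had 1.51 and 1.53, Gzmk-positive cells 1.20 and 1.41, and naive-like cells 0.445 and 0.522. Without thinning the Havcr2+ Pdcd1+ means were 4.92 and 5.20. The spread among cells was wide in every gate, and 7.69% and 12.6% of the thinned Havcr2+ Pdcd1+ cells had none.

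Transcription factors of exhaustion and residency followed the receptors. Of 16 read, 7 were higher than in Gzmk-positive cells and none lower, namely Id2, Ikzf2, Maf, Nr4a2, Prdm1, Rbpj and Tox. Tox was 2.03 times (1.49 to 2.74) and 1.98 times (1.53 to 2.56) the Gzmk-positive level. That gate did not require Pdcd1. In Pdcd1-positive Havcr2-negative cells, mixed ones kept, Tox was at 200 and 138 CPM. Nr4a2, an orphan nuclear receptor induced by antigen receptor signals, stood at 661 and 607 against 370 and 370 CPM. The list of T cell receptor early response genes did not follow it. Of 25 read, Nr4a2 alone was higher and 7 were lower, with a median log2 ratio of -0.57 and -0.25. Id2, an inhibitor of E proteins that favours effector differentiation, stood at 712 and 607 against 372 and 310. Ikzf2, encoding Helios, stood at 145 and 143 against 46.9 and 74.2.

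Genes of progenitor and memory T cells were lower. Of 13 read, 9 were lower than in Gzmk-positive cells and none higher, with a median log2 ratio of -1.47 and -1.42. Tcf7 stood at 8.53 and 15.6 CPM, which is 2 and 5 UMIs in all, against 125 and 95.4 in Gzmk-positive and 332 and 293 in naive-like cells. That made it 14.7 times lower than in Gzmk-positive cells in DMSO (3.97 to 122) and 6.13 times lower in STK (2.58 to 19.1). Satb1, a chromatin organiser of resting T cells, was 12.4 and 10.6 times lower. Il7r, the receptor for the survival cytokine IL-7, stood at 12.8 and 49.8 against 136 and 158. Klf2, which drives genes of tissue exit such as S1pr1, stood at 124 and 171 against 997 and 459. Cells with a Tcf7 UMI were 5 of 65 and 6 of 96, and after thinning 3 of 65 and 0 of 95, where a count of 0 allows up to 3.81% (upper binomial bound).

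**Figure D2:**
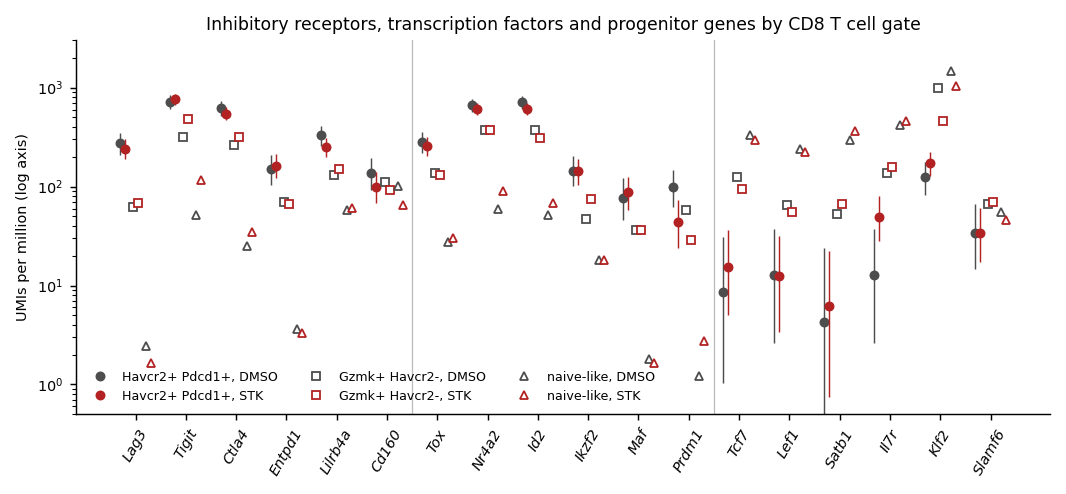
Each symbol is the level of 1 gene in CPM (log axis) in 1 gate and library, with filled circles for Havcr2+ Pdcd1+ cells and bars for their 95% Poisson intervals. The receptors (left) and transcription factors (middle) lie highest in the filled circles for Lag3, Tigit, Ctla4 and Tox, and the progenitor genes (right) Tcf7, Lef1 and Satb1 lie lowest.

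Cytotoxic genes did not separate the Havcr2+ Pdcd1+ cells from their Gzmk-positive neighbours. Of 14 read, 1 was lower and none higher, the granzyme gene Gzmm at 8.53 and 6.23 CPM against 104 and 58.9. Nkg7, a granule protein of killer cells, stood at 4764 and 4914, and Prf1, encoding perforin, at 175 and 143.

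Lists of secreted factors and costimulatory receptors held a few genes that differed. Of 10 cytokine and chemokine genes read, Areg and Ccl3 were higher than in Gzmk-positive cells and Cxcl10, Tnf and Xcl1 lower. Of 13 costimulatory receptors, Tnfrsf4 and Tnfrsf9 were higher and none was lower. Tnfrsf9, encoding 4-1BB, was 6.90 times (4.90 to 9.79) and 2.96 times (2.31 to 3.77) the Gzmk-positive level, at 384 and 318 against 55.7 and 107 CPM. Tnfrsf4, encoding OX40, stood at 277 and 149 against 28.3 and 39.8. The chemokine gene Ccl3 was 6.92 times (5.47 to 8.79) and 2.66 times (1.72 to 4.05) that level. Of 18 homing and residency genes read, Cxcr6 alone was higher, and Cd44, Cd69, Gpr183, Itgb1 and S1pr1 were lower. Cxcr6, a homing receptor of liver-resident lymphocytes, stood at 576 and 551 against 311 and 321. Cd69, which keeps cells in tissue by acting against the exit receptor S1PR1, stood at 252 and 125 against 523 and 287. Ccr8, a chemokine receptor best known in tumour regulatory T cells, is on that list but had too few UMIs to be among the 18. It stood at 111 and 71.6 against 0.98 and 9.82. Ly6c2, a surface protein of circulating effector and memory cells, was lower, at 755 and 470 against 1755 and 1546. With the 2 most frequent receptor pairs of each library left out, Ly6c2 stood at 1436.5 and 528. The DMSO level was then within 1.5-fold of the Gzmk-positive one. In the same cells Areg had 0 and 110 UMIs, and Ccr8 stood at 8.81 and 85.6 CPM. Tnfrsf9 stood at 159 and 294, Tnfrsf4 at 141 and 175, Ccl3 at 908 and 108 and Cxcr6 at 511 and 573. Of the 39 Areg UMIs of all unmixed DMSO cells, 35 were in 1 cell.

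Areg, Tnfrsf4, Ctla4 and Ikzf2 are also on the list of regulatory T cell markers. That list of 10 genes summed to 1339 and 1314 CPM in the Havcr2+ Pdcd1+ cells against 348 and 530 in Gzmk-positive cells, with Foxp3, Il1rl1 and Gpr83 at 0 in both libraries. CD4 T cell markers summed to 29.9 and 31.1, against 35.1 and 26.7. Neutrophil markers summed to 0 and 12.5, B cell markers to 226 and 168, and hepatocyte markers to 456 and 511 against 671 and 570 in Gzmk-positive cells. Erythroid markers were at 0 in both libraries. The list of 11 NK cell markers, which holds Gzma, summed to 426 CPM in DMSO and 2716 in STK, against 1423 and 1442 in Gzmk-positive cells. Klrb1c, Klra4, Klra8, Klra7 and Ncr1 of that list were at 0 in DMSO and none was at 0 in STK, and Fcer1g, Gzma and Txk were at least 1.5-fold higher in STK. The list of 11 gamma-delta T cell markers summed to 76.8 and 318, with 6 and 7 of them at 0, among them Il17a and Sox13 in both libraries, and Tcrg-C2 and Trgv2 were higher in STK. The part of such cells in the differences between the libraries was not tested.

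Between the libraries, Havcr2+ Pdcd1+ cells differed at many genes, as such small groups of cells do under a fold rule with no replicates. With the same minimum in the higher library, 217 of 1502 genes (14.4%) were at least 1.5-fold higher in STK and 114 (7.59%) lower. With mixed cells kept, 313 of 2217 (14.1%) were higher and 143 (6.45%) lower. For the lists, read at 30 UMIs over both libraries, 354 of 2671 genes (13.3%) were higher and 270 (10.1%) lower. The median log2 ratio over all of them was 0.02. These shares are for all unmixed cells. None is given for the cells left without the 2 most frequent receptor pairs of each library, so list counts in those cells are descriptions. Among male-type cells alone, mixed cells kept, 43 genes were called higher in STK and 195 lower. There 12 STK cells faced 33 DMSO cells, so the minimum of 30 UMIs was harder to reach in STK. Over both sexes the STK cells held more UMIs, so that minimum was easier to reach in STK. Neither split under that minimum can thus show which way the genes leaned.

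Most inhibitory receptors were within 1.5-fold between the libraries. Of 12 read, 3 were higher in STK and none lower, with a median log2 ratio of 0.06, close to that of all genes. Among male-type cells, mixed ones kept, the median was -0.25. Lag3 had a STK over DMSO ratio of 0.879 (0.622 to 1.24), Tigit 1.06 (0.872 to 1.30), Ctla4 0.881 (0.703 to 1.11) and Entpd1 1.08 (0.693 to 1.72). Between male-type cells the Lag3 ratio was 0.495 (0.170 to 1.19), and with mixed cells kept its log2 ratio was -1.56. The 3 that were higher were Cd200r1 at 25.6 and 99.7 CPM, Klrc1 at 119 and 249 and Vsir at 51.2 and 128. Tox had a ratio of 0.918 (0.657 to 1.29). Of 15 exhaustion transcription factors 6 were called, beside 13.3% higher and 10.1% lower over all genes read. Nr4a1 and Nr4a3 were higher in STK and Batf, Eomes, Nfatc1 and Prdm1 lower. With the 2 most frequent receptor pairs of each library left out, 2 of 11 were higher and 2 lower. Eomes, a T-box factor, stood at 230 against 99.7, but without the 2 most frequent receptor pairs of each library its ratio was 0.657 with an interval of 0.351 to 1.26.

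Ifng, Ccl3 and Ccl4 were lower in STK, while cytokines and chemokines as a list were not. Of 10 such genes read, those 3 were lower and Areg and Cxcl10 higher, with a median log2 ratio of 0.12. Cxcl10, a chemokine gene induced by interferon, stood at 51.2 against 81.0 CPM, a ratio of 1.58 (0.771 to 3.44). Ifng, encoding interferon gamma, had 120 UMIs in DMSO and 15 in STK, or 512 CPM (424 to 612) against 46.7 CPM (26.1 to 77.0), a ratio of 0.0913 (0.0495 to 0.157). A single DMSO cell held 68 of those 120 UMIs (56.7%). Ccl3 stood at 797 against 106, a ratio of 0.133 (0.0893 to 0.192), and Ccl4 at 3058 against 838, a ratio of 0.274 (0.237 to 0.316). The DMSO levels leaned on few cells, and when the 3 cells with most UMIs of the gene were left out in each library the ratios were 0.154 (0.0576 to 0.356), 0.0722 (0.0302 to 0.149) and 0.325 (0.271 to 0.389). Between male-type cells the ratios were 0.0308, 0.161 and 0.696 (0.525 to 0.910), so Ccl4 was within 1.5-fold there, and its log2 ratio with mixed cells kept was -0.12. After thinning, Ifng was detected in 15.4% (7.63 to 26.5) of DMSO and 4.21% (1.16 to 10.4) of STK cells, and Ccl3 in 26.2% (16.0 to 38.5) and 8.42% (3.71 to 15.9). The B cell shares were 0 of 139 and 0 of 163 for Ifng, with upper bounds of 2.62% and 2.24%, and 0.719% and 3.07% for Ccl3. The direction was shared by Gzmk-positive cells, in which the ratios were 0.543 for Ifng, 0.346 for Ccl3 and 0.571 for Ccl4. The chemokine Ccl5 went the other way, at 15382 against 18988, a ratio of 1.23 that is under the fold used for a call.

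Heat shock genes were lower in STK, and the median of their list was below 0 in all 3 gates. Of 13 stress genes read in the Havcr2+ Pdcd1+ cells, 9 were lower and 1 higher, with a median log2 ratio of -0.71, against -0.70 in Gzmk-positive and -0.35 in naive-like cells. Hspa1a, an inducible chaperone, had 29 UMIs in DMSO and none in STK. Hsph1 stood at 273 against 43.6 CPM, Hsp90aa1 at 785 against 383, and the abundant Hspa8 at 3284 against 2133. The gene that was higher was Gadd45b, at 64.0 against 156. With those frequent receptor pairs left out, 3 of 10 stress genes were lower and 1 higher, with a median of -0.42. Dusp1, a phosphatase of the early response, stood at 1181 against 417, with ratios of 0.353 in these cells, 0.549 in Gzmk-positive and 0.878 in naive-like cells.

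Genes of glycolysis and hypoxia were lower as well. Of 14 read, 7 were lower and none higher, with a median log2 ratio of -0.62, against -0.15 and -0.17 in Gzmk-positive and naive-like cells. Pgam1, a glycolytic mutase, stood at 307 against 137 CPM, and Hif1a, the oxygen-sensing factor, at 277 against 121. Slc2a1, the glucose transporter GLUT1, stood at 98.1 against 46.7. The difference between gates was not tested, and without the 2 most frequent receptor pairs of each library the list had 2 of 11 genes lower and a median of -0.38. Nuclear genes of oxidative phosphorylation had 2 of 21 higher and none lower.

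Interferon response genes moved with the choice of cells. Of 15 type I interferon response genes 1 was higher and 3 lower, with a median log2 ratio of -0.16. When the frequent pairs were left out, 8 of 14 were lower and none higher, with a median of -0.63. No share over all genes is given for those cells to set beside these counts. Ifit1, an antiviral effector, stood at 166 against 62.3 CPM, while among male-type cells the ratio was 1.40. Of 19 genes of the interferon gamma response and antigen presentation, 1 was higher and 1 lower, and without the frequent pairs 4 of 18 were lower and none higher.

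Genes of sterol handling were mostly too low to read. Gpr132, the receptor named in the title of the series, had 7 UMIs in the DMSO cells and 38 in the STK cells, or 29.9 CPM (12.0 to 61.5) against 118 CPM (83.7 to 162), a ratio of 3.96 (1.75 to 10.5). It lies at chr12:112850873-112868228 on the minus strand. The ratio was 2.23 in Gzmk-positive and 3.01 in naive-like cells, and 4.90 between male-type Havcr2+ Pdcd1+ cells, so the direction was not confined to these cells. The level was lower than in Gzmk-positive cells in both libraries. After thinning, Gpr132 was detected in 4.62% of DMSO and 7.37% of STK cells (16.9% and 41.7% unthinned). The B cell shares were 5.76% and 13.5%. Whether B cells lack Gpr132 was not tested, so their shares cannot serve as a background for it. Gpr183, a receptor for oxysterols that guides lymphocytes, had 12 and 36 UMIs, a ratio of 2.19 (1.11 to 4.62). Soat1, the enzyme gene, had 5 and 16 UMIs, a ratio of 2.34 (0.818 to 8.16), and Soat2 had 0 and 4. Ch25h, Cyp27a1 and Cyp7b1, which make or break down oxysterols, had no UMI in either library. Of 25 cholesterol synthesis genes 1 had enough UMIs to read, and it was not called.

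Among the genes furthest apart, Cxcr4, a homing receptor, stood at 29.9 against 128 CPM, and its ratio of 4.28 was 2.24 in Gzmk-positive cells. Rnf125, encoding a ubiquitin ligase, stood at 68.2 against 237, and the cold-inducible RNA-binding protein gene Cirbp had 4 and 36 UMIs. Bcl2, a survival factor, stood at 51.2 against 153, and Cd7 at 256 against 760. Costimulatory receptors as a list had 4 of 13 genes higher and 1 lower. Homing genes had 5 of 16 higher and 2 lower, and negative regulators of T cell signalling 5 of 15 higher and 1 lower.

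**Figure D3:**
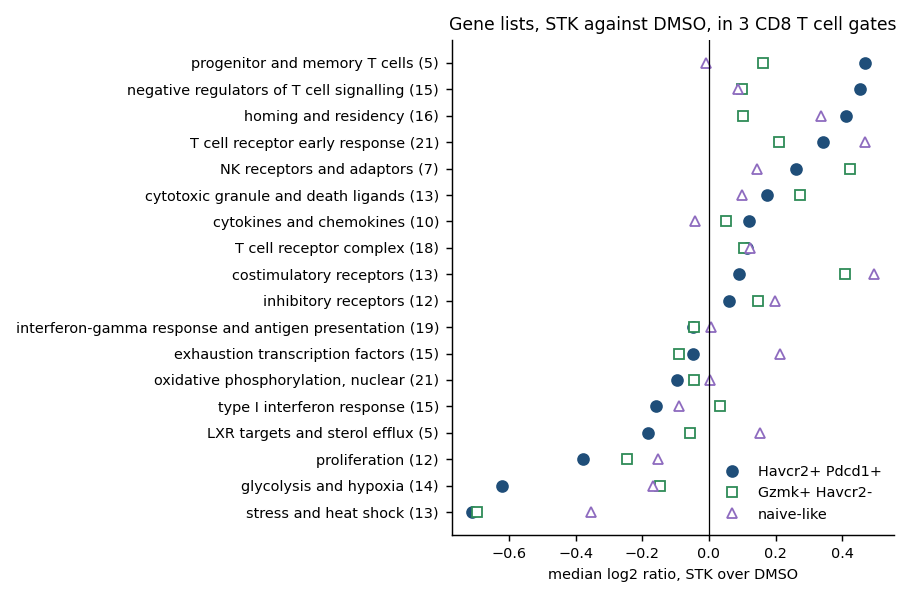
Points are the median log2 ratio of STK over DMSO for each gene list, with the number of genes read in Havcr2+ Pdcd1+ cells in brackets, in 3 CD8 T cell gates. Stress genes lie lowest in Havcr2+ Pdcd1+ and Gzmk-positive cells (-0.71 and -0.70), and inhibitory receptors lie near 0 (0.06).

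Five-prime libraries also read the variable segments of the T cell receptor, which recur in cells descended from 1 clone. The most abundant alpha segment (Trav) and beta segment (Trbv) gave a pair for 63 of 65 DMSO and 78 of 96 STK cells. A segment pair is not a clonotype, since cells of different clones can share it. Repeated pairs held 71.4% of DMSO and 61.5% of STK cells with a pair, and there were 26 and 44 distinct pairs.

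A few pairs were frequent, and they differed between the libraries. In DMSO, Trav7-3 with Trbv4 was carried by 18 of 63 cells (28.6%), Trav6-5 with Trbv19 by 11 (17.5%) and Trav16 with Trbv15 by 5 (7.94%). In STK, Trav1 with Trbv12-1 and Trav7-5 with Trbv12-2 were each carried by 7 of 78 cells (8.97%) and Trav14-3 with Trbv13-1 by 6 (7.69%). None of these pairs was found in a Havcr2+ Pdcd1+ cell of the other library. The most frequent pair of naive-like cells held 1.69% and 1.32% of them, but that of Gzmk-positive cells held 11.9% and 9.52%. Repeated pairs held 76.5% and 78.3% of the other CD8 T cells with a pair. By beta segment alone, Trbv19 (29.2%), Trbv4 (27.7%) and Trbv15 (12.3%) led in DMSO, against 10.8%, 10.2% and 3.72% of the other CD8 T cells, and Trbv13-1 (16.8%), Trbv3 (14.7%) and Trbv12-1 (12.6%) led in STK, against 8.27%, 10.0% and 5.14%.

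The pairs were spread differently over the CD8 T cell gates. Of 12 non-cycling CD8 T cells with Trav6-5 and Trbv19, 11 were Havcr2+ Pdcd1+ (91.7%, 61.5 to 99.8), none was Gzmk-positive Havcr2-negative, and 7 further cells were cycling Havcr2+ Pdcd1+. Of 9 with Trav1 and Trbv12-1, 7 were Havcr2+ Pdcd1+ (77.8%, 40.0 to 97.2). By contrast 18 of 64 cells with Trav7-3 and Trbv4 (28.1%, 17.6 to 40.8) and 7 of 49 with Trav7-5 and Trbv12-2 (14.3%, 5.94 to 27.2) were, while 37 and 40 cells of these pairs were in the Gzmk-positive gate. Cells of all other pairs were Havcr2+ Pdcd1+ in 5.15% to 7.62%. These pairs were singled out for being frequent in the Havcr2+ Pdcd1+ cells, so their shares are a description. Sex types leaned 1 way within these pairs. Over all CD8 T cells with a type, Trav6-5 with Trbv19 had 14 male and 0 female, and Trav1 with Trbv12-1 had 0 male and 9 female. In DMSO, Trav7-3 with Trbv4 had 30 male and 2 female. The other frequent STK pairs leaned against their mostly female-type library. Trav7-5 with Trbv12-2 had 18 male and 2 female, and Trav14-3 with Trbv13-1 had 10 male and 0 female.

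Most Gzma UMIs of the STK cells lay in 1 of these pairs. Gzma, encoding granzyme A and located at chr13:113093825-113100981, had 24 UMIs in 4 DMSO cells and 710 UMIs in 19 STK cells, or 102 against 2211 CPM, a ratio of 21.6. In STK, 5 of the 6 cells with Trav1 and Trbv12-1 held 576 of the 710 UMIs (81.1%), a level of 19446 CPM against 460 in the other Havcr2+ Pdcd1+ cells. The 5 cells of that pair outside the selection stood at 17266. Without the 2 most frequent pairs of each library, 30 DMSO and 69 STK cells remained and Gzma stood at 203 against 499, a ratio of 2.46 (1.57 to 4.01). The DMSO level itself rested on 1 cell with 83.3% of the UMIs. With the pairs out, the cell with most Gzma UMIs was also left out in each library. The ratio was then 13.2 (4.40 to 65.4), on 3 DMSO and 93 STK UMIs. In Gzmk-positive cells the ratio was 0.816. Between male-type Havcr2+ Pdcd1+ cells, mixed ones kept, the log2 ratio was 0.08, and without mixed ones they had 0 UMIs in DMSO and 1 in STK. After thinning, 3.08% of DMSO and 12.6% of STK cells had Gzma, against 2.88% and 0.613% of B cells.

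The same pair stood apart in other genes. Cd7 was at 3207 CPM in its cells against 511 in the other Havcr2+ Pdcd1+ STK cells, Cd200r1 at 371 against 72.1, and the NK receptor gene Klrc1 at 608 against 213. Ctla4 was at 67.5 against 594, and the costimulator Icos and Ly6c2 had no UMI in these 6 cells. Lag3 and Tox were at 338 and 203 against 230 and 264, with overlapping intervals. Without the frequent pairs the STK over DMSO ratio of Klrc1 was 1.10 (0.671 to 1.87) and that of Cd200r1 4.43 (1.08 to 39.0).

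In DMSO the pair Trav6-5 with Trbv19 carried another set of genes. Penk, encoding the opioid precursor proenkephalin and located at chr4:4133531-4138819, had 52 of its 62 DMSO UMIs (83.9%) in 6 of the 8 cells of this pair, or 1257 CPM against 51.8 in the other cells. Spp1, encoding osteopontin, had 39 of 45 UMIs (86.7%) there. Areg, encoding the growth factor amphiregulin, had 38 of 39 (97.4%) there, but 35 of them were in 1 cell. Ccr8 stood at 435 against 41.4, Tnfrsf18, encoding GITR, at 1064 against 186, and Tnfrsf9 at 943 against 264.

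These 8 cells were low in cytotoxic genes and in the CD8 beta chain. Gzmb, encoding granzyme B, had 2 UMIs in them, 48.3 CPM against 2822 in the other Havcr2+ Pdcd1+ DMSO cells, and Ly6c2 had none against 917. Cd8b1 stood at 387 against 1538 while Cd8a stood at 1112 against 1175. Cd4 and Foxp3 had no UMI in them, the latter by the rule. The 7 cells of the pair outside the selection, mostly cycling, had Penk at 721, Tnfrsf9 at 999 and Cd8b1 at 444 CPM.

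Penk stood at 264 against 74.7 CPM and Spp1 at 192 against 56.1, both lower in STK. With the Trav6-5 and Trbv19 cells alone left out, the ratios were 1.44 (0.665 to 3.38) for Penk and 1.80 (0.686 to 5.55) for Spp1. The remaining 10 Penk and 6 Spp1 UMIs of DMSO all lay in Trav7-3 and Trbv4 cells. Without the 2 most frequent pairs of each library, Penk and Spp1 each had 0 UMIs in DMSO and 17 in STK. With a floor of 3 UMIs for DMSO each was 2.39-fold higher in STK. The interval was taken on the counted 0, not on the floor, and reached down to 1.74-fold. No interval was computed for the floored ratio, and it would be wider. A single STK cell held 8 of the 17 Spp1 UMIs, and 1 held 4 of the 17 Penk UMIs. Areg in the same cells had 0 against 110 UMIs, 15.5-fold higher with that floor. Its interval, again taken on the counted 0, reached down to 12.4-fold. A single STK cell held 45.2% of the 124 Areg UMIs of all STK cells that are not mixed. Tnfrsf4, at 277 against 149 in all cells, had a ratio of 1.24 (0.691 to 2.34).

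The most frequent DMSO pair, Trav7-3 with Trbv4, was rich in Gzmb. Its 16 cells held 62.5% of the Gzmb UMIs of the DMSO cells, at 4294 CPM against 1324. A single cell held 154 of their 342 UMIs, and the other 15 stood at 2555 CPM. The 50 cells of the pair outside the selection stood at 1410. Ly6c2 was at 176 in them against 1053.

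**Figure D4:**
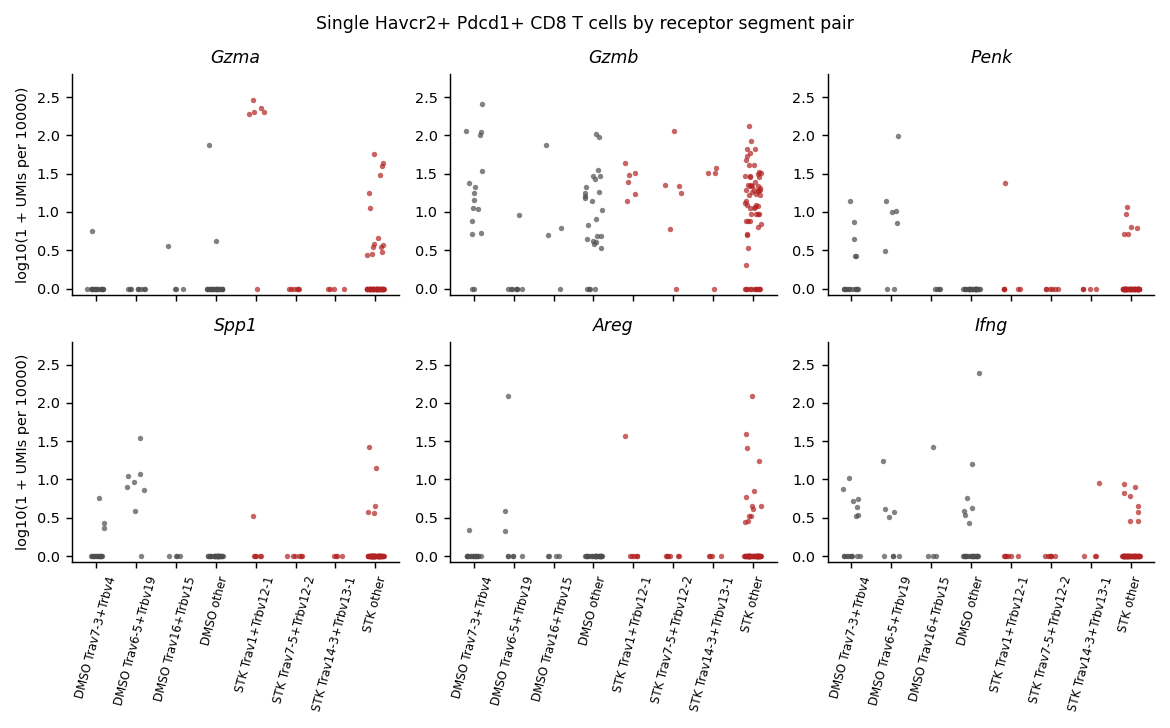
Each point is 1 Havcr2+ Pdcd1+ cell that is not mixed, placed by library and receptor segment pair, with log10(1 + UMIs per 10000 of the cell) of 6 genes on the vertical axis and a small sideways scatter for sight. Gzma is high in 5 of 6 STK cells with Trav1 and Trbv12-1, and Penk and Spp1 lie above 0 in 6 and 7 of 8 DMSO cells with Trav6-5 and Trbv19.

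Other differences kept their direction without the frequent pairs. Without the 2 most frequent pairs of each library the ratio of Ifng was 0.0674 (0.0363 to 0.117), of Ccl3 0.119 (0.0759 to 0.181), of Ccl4 0.188 (0.158 to 0.224), of Hsph1 0.133 (0.0608 to 0.267) and of Cxcr4 3.59 (1.28 to 13.9). For 3 of these genes few DMSO cells carried the level. Of the 30 DMSO cells left, 1 held 68 of 94 Ifng UMIs, 2 held 87 of 103 Ccl3 UMIs and 3 held 314 of 437 Ccl4 UMIs. Without the 3 cells with most UMIs of the gene in each library the ratios were 0.394 (0.118 to 1.32) for Ifng, 0.123 (0.0218 to 0.478) for Ccl3, on 10 and 3 UMIs, and 0.349 (0.267 to 0.455) for Ccl4. Gpr132 had 2.18 with an interval of 0.897 to 6.40, which reaches below 1. Genes called higher in STK numbered 192 and lower 54. Against Gzmk-positive cells 12 genes were then called higher in the Havcr2+ Pdcd1+ cells and 54 lower. The minimum of 30 UMIs was harder to reach in the 30 DMSO than in the 69 STK cells. It was also harder to reach in these cells than in the larger Gzmk-positive gate. Both splits are thus descriptions that cannot show a lean, and no share over all genes is given for them. In these summed counts, a change within each cell and a change in which clones make up the group cannot be told apart.

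**Figure D5:**
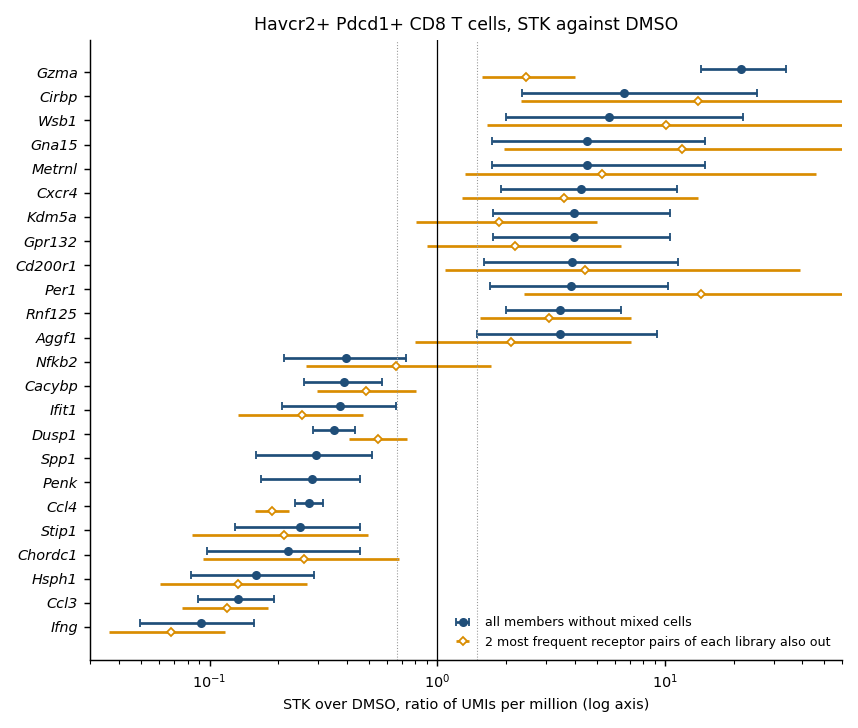
Ratios of STK over DMSO (log axis) with 95% intervals of counting error for the 12 highest and 12 lowest genes, in Havcr2+ Pdcd1+ cells without mixed cells (blue) and with the 2 most frequent receptor pairs of each library also left out (orange, ended at the axis, and absent where DMSO had 0 UMIs). Dotted lines mark 1.5-fold; Gzma moves from 21.6 to 2.46, and Ifng, Ccl3 and Ccl4 stay below 0.3.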

How the data were processed

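Droplet 5′ single-cell libraries, 1 per group, were deposited by the authors as matrices of raw, unnormalized UMI counts for each gene in each barcode. Cell Ranger 6.0.2 made them, per the file headers. The genome build was GRCm38 (mm10), per the submitters' processing notes. The annotation release is not given in the sources used here. Coordinates were taken from GENCODE vM21.

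Counts were summed per gate and library and scaled to 1000000 UMIs of the gate (CPM). Intervals at 95% were exact Poisson for levels, exact binomial (Clopper-Pearson) for shares, and conditional binomial for ratios, and were checked on simulated data. UMIs count captured molecules, so intervals and limits cover counting error only. A call meant a fold of at least 1.5, with 50 CPM and 30 UMIs in the higher group. With 1 library per group there was no test. Cells were thinned without replacement to 1000 UMIs for shares of cells and to 2000 for the thinned selection, which left out 96 DMSO and 143 STK CD8 T cells as too shallow. Doublets were scored with Scrublet (scanpy 1.11.5) and not removed in the main values. Its automatic threshold marked 0 STK cells, so 1 limit of 0.25 was used, which marked 414 (3.71%) and 433 (3.99%) barcodes. The limit of 20 UMIs for mixed cells, the removal of frequent receptor pairs and of the cells with most UMIs of a gene, and the pooling of duplicated alpha segments were chosen after the data had been seen.

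The genes named were the selection's markers, Gpr132, Soat1 and Soat2, the 12 highest and 12 lowest by ratio in each comparison, members of each gene list furthest from equal or needed for their role, and the 3 most frequent beta segments. Genes described by receptor pair were named after their values had been seen. Receptor segment, mitochondrial, ribosomal and sex-linked genes were left out of rankings. The cells and the lists were chosen with earlier results of these data known.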

Additional observations from a re-analysis of the deposited data

Results flagged for a closer look

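With mixed cells kept, 4 genes moved past 1.5-fold between the libraries in opposite directions in Havcr2+ Pdcd1+ and Gzmk-positive cells. The difference was not tested. Zeb2, a zinc-finger transcription factor that acts with T-bet in terminal effector differentiation, had a STK over DMSO ratio of 1.77 (1.05 to 3.08) in Havcr2+ Pdcd1+ cells and 0.408 in Gzmk-positive cells. Txk, a Tec family kinase, had 1.54 (0.847 to 2.91) against 0.620. Herc4, a ubiquitin ligase gene, had 1.72 (0.902 to 3.46) against 0.666, and Ngdn had 1.84 (0.920 to 3.91) against 0.661. All but the interval of Zeb2 in the Havcr2+ Pdcd1+ cells reach below 1. With mixed cells left out, Zeb2 was not among the genes called higher in STK.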

How the results depend on the processing

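Each group is 1 library, so replicates could not be left out. No paired analysis was possible because each group has 1 library. Of 615 alternative values, 43 values answering a comparison moved and 35 did not, and of the others 148 moved, 16 reversed and 373 did not. The share ratio of 1.04 was 5.04 in female-type cells, 0.566 in male-type cells and 1.54 without the 2 most frequent receptor pairs of each library. Those pairs were chosen for being frequent in the selected cells. The main counts, with mixed cells kept, were 313 genes higher and 143 lower in STK, 79 above and 56 below Gzmk-positive cells, and 347 above and 121 below naive-like cells. In male-type cells 43 were higher and 195 lower in STK, and the Ifit1 log2 ratio was 1.15. Without the frequent pairs 67 were lower in STK, 37 above Gzmk-positive and 185 above naive-like cells, and Spp1 was at 1.41. Without mixed cells 39 were above Gzmk-positive cells, and Cxcl2 (-1.04), Cd79a (-2.04), Marcksl1 (-1.45) and Apoe (0.049) reversed. Without called doublets 43 were above Gzmk-positive cells, and Cd79a (-2.20), Jun (0.51), Fos (0.85) and Apoe (1.19) reversed. With at least 2 Havcr2 UMIs 111 were higher and 88 lower in STK, 30 above and 122 below Gzmk-positive cells and 144 above naive-like cells, and Cd209a (-0.77), Ckb, Cd79a and Marcksl1 (each -1.77) reversed. Scaling without ribosomal, mitochondrial and receptor genes gave 85 below Gzmk-positive, 163 above naive-like and 343 below naive-like cells. Thinned to 2000 UMIs, 58 were higher and 32 lower in STK, 13 above and 106 below Gzmk-positive and 78 above naive-like cells, and Marcksl1 and Thbs1 (each -0.26) reversed. A minimum of 20 CPM and 10 UMIs gave 1133, 741, 220, 132, 850 and 249, in the order of the main counts, a minimum of 100 and 60 gave 96, 58, 38, 23, 177 and 61, and a fold of 2 gave 118, 40, 28, 12, 133 and 44. The mean number of receptors per cell was 3.27 in DMSO at 2000 UMIs, and 4.92 and 5.20 without thinning. For these movements the cause was not tested, except that the minimum, the fold and thinning change how many genes can be called. Gene values within female-type cells were not run, since DMSO had 1 such cell.

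The main limits are 1 library per group, unknown animal numbers, libraries of different sex makeup, and 54 and 81 unmixed cells.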
